A study of Mus musculus with 3 samples.

Results

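The genes followed here are 7 of the acute-phase and antiprotease response: Saa3, Lcn2, Slpi, Pglyrp1, Stfa1, Cstdc5 and Serpinb3a. They were found by Ensembl ID in each of the 3 count matrices, 7 of the 30406 IDs that all 3 matrices list, and were picked with their levels in these libraries already known. For that reason their own differences between libraries are given as description and not as a finding. Nuclei from whole, snap-frozen mouse corneas were profiled by droplet single-nucleus RNA sequencing with the 10x Genomics 3' kit, 1 library per group and 5 pooled mice per library, all at 7 weeks of age per the labels. The library labelled WT came from untreated wild-type mice, the library labelled KO from untreated mice lacking Aire, and the library labelled KO_PBS from mice lacking Aire that had been given PBS for 14 days. Aire is needed in the thymus for tolerance to self proteins, and mice without it develop an autoimmune dry eye. The allele, the strain and the sex are not given in the sources used here, and the series text gives another age and treatment day than the sample labels. The comparisons set the cornea of this dry eye model against wild type, and saline treatment against no treatment.

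Serum amyloid A, lipocalin-2 and secretory leukocyte protease inhibitor belong to the innate response of barrier tissues. Inflammatory cytokines acting through NF-kappa-B, C/EBP and STAT factors induce acute-phase proteins such as SAA in liver and at epithelial surfaces, lipocalin-2 takes iron from bacteria by binding their siderophores, and SLPI blocks neutrophil elastase and other serine proteases. Pglyrp1 encodes a peptidoglycan recognition protein of neutrophil granules and of some epithelia. Stfa1 and Cstdc5 encode stefin-type inhibitors of cysteine cathepsins, and Serpinb3a encodes an intracellular serpin of stratified epithelia.

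WT comprised 96587 barcodes, KO 107031 and KO_PBS 114357, with 256852883, 352627863 and 178988562 UMIs (unique molecular identifiers, each counting 1 captured transcript). Median UMIs per barcode over the shared genes were 2253, 2970 and 1422. Levels are counts per 1000000 UMIs of the library (CPM) over those genes. Where 3 values follow each other with no library named, their order is WT, KO, KO_PBS. Every interval is an exact 95% interval that covers counting error only. Since no group has a second library, no difference could be checked against replicates and no p-value is given. Aire, the targeted gene, had 15, 27 and 68 UMIs, so it did not check the labels. The corneal epithelial keratin Krt12 stood at 26121, 13793 and 6205 CPM and the stromal proteoglycan Kera at 48.4, 156 and 32.9 CPM, so both defining markers of cornea were present in each library. The KO_PBS library stood apart in its gene list, with 31053 genes listed against 32285 in WT and in KO, and in its tissue makeup. Its summed lens markers reached 6969 CPM against 499 in WT and 196 in KO, and its photoreceptor markers 1959 against 126 and 46.3. Of the barcode sequences, 2833 occurred in both WT and KO, 3379 in both KO and KO_PBS and 2998 in both WT and KO_PBS. The values below that change without them are named where they do.

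The upstream sequences of the 3 genes whose level in KO was over 10 times that in WT, Saa3, Lcn2 and Slpi, are shown to place the letters of an acute-phase type motif. Each runs from 250 bases before to 50 bases after the RefSeq transcription start on GRCm38.p6, 5' to 3'. Capitals mark the C/EBP-type motif TTNNGNAA on either strand.
Saa3, chr7:46715627-46715926, minus strand: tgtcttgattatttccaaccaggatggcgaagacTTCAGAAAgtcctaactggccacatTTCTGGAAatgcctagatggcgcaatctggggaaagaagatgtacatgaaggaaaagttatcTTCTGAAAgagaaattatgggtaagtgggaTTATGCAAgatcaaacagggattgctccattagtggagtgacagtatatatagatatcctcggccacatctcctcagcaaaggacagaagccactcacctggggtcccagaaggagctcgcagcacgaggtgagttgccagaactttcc
Lcn2, chr2:32387690-32387989, minus strand: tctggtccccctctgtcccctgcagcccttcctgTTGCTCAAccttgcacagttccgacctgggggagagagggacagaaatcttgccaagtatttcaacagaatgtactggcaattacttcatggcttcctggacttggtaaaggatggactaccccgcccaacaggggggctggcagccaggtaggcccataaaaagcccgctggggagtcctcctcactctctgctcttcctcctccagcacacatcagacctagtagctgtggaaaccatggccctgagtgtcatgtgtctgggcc
Slpi, chr2:164356458-164356757, minus strand: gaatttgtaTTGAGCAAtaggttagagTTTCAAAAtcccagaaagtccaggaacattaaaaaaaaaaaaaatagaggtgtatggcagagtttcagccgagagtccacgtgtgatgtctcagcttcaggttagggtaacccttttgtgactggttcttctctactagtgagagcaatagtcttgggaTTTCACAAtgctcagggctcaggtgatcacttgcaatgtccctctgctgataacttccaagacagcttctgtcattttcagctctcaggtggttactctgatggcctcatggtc
The Saa3 window held 4 matches, the nearest to the start at -99 to -92 (TTATGCAA), the Slpi window 3, with the nearest at -64 to -57 (TTTCACAA), and the Lcn2 window 1, at -216 to -209 (TTGCTCAA). The motif is loose: 40.7% of 32851 RefSeq promoter windows of the same length held at least 1 match. No match to the STAT motif TTCNNNGAA, present in 8.30% of windows, or to the kappa-B motif, present in 8.46%, lay in these 3 windows. The only kappa-B match among the 7 genes was GGAAAGTCCC, 93 to 84 bases before the start of Pglyrp1. For the C/EBP-type motif, the Serpinb3a window held 2 matches, the Stfa1 and Cstdc5 windows 1 each and the Pglyrp1 window 0. Serpinb3a was not higher in KO, and the share of all windows with several matches was not counted. These matches are letters in a window and no binding was measured.

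The promoters of the 2 stefins are shown because these genes are near copies of each other, with capitals as above.
Stfa1, chr16:36276898-36277197, plus strand: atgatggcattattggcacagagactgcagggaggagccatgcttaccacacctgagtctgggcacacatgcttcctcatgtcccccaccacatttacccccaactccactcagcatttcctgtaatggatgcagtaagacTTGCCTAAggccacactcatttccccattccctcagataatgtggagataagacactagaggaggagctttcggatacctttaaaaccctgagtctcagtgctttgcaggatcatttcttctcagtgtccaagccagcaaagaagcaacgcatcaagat
Cstdc5, chr16:36367521-36367820, minus strand: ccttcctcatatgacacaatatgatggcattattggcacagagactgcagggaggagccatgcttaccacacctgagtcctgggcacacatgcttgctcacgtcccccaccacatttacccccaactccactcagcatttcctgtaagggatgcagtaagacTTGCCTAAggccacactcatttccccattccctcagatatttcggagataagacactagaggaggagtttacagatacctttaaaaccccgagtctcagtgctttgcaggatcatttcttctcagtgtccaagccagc
Over 279 aligned bases, 269 (96.4%) were the same, and both windows held the same single match TTGCCTAA. Their last 300 transcript bases, where a 3' kit places its reads, were the same at 296 of 300 (98.7%), and Cstdc6 matched Cstdc5 at 97.8%. How reads that fit several of these genes were assigned is not given in the sources used here, so the split among stefin genes is uncertain.

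Saa3 (ENSMUSG00000040026, chr7:46711998-46715700, minus strand, GRCm38) encodes an extrahepatic serum amyloid A that acts as an attractant and opsonin. WT held 167 of its UMIs, KO 431614 and KO_PBS 10379. These were 0.653 CPM (0.557 to 0.759), 1228 CPM (1225 to 1232) and 58.4 CPM (57.3 to 59.5). KO was the highest library, WT was near the floor and KO_PBS lay between them. The level in KO was 1883 times that in WT (1618 to 2204) and KO_PBS was 21.0-fold lower than KO (20.6 to 21.5), which left it 89.4 times above WT (76.8 to 105).

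Slpi (ENSMUSG00000017002, chr2:164354070-164389095, minus strand) encodes the secreted elastase inhibitor described above. WT held 994 of its UMIs, KO 1381681 and KO_PBS 3224, or 3.88 CPM (3.65 to 4.13), 3933 CPM (3926 to 3939) and 18.1 CPM (17.5 to 18.8). The order of the libraries was that of Saa3, but KO_PBS lay much nearer to WT. KO was 1013 times WT (951 to 1079), KO_PBS was 217-fold lower than KO (210 to 225) and 4.67 times WT (4.35 to 5.02). An annotated miRNA gene lies within an exon of Slpi on the same strand, and it is in none of the gene lists.

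Lcn2 (ENSMUSG00000026822, chr2:32384633-32388252, minus strand), the siderophore-binding lipocalin, differed less. It had 2064, 30121 and 7345 UMIs, or 8.06 CPM (7.72 to 8.42), 85.7 CPM (84.8 to 86.7) and 41.3 CPM (40.4 to 42.3). KO was again highest and KO_PBS again between the other libraries. KO was 10.6 times WT (10.2 to 11.1), and KO_PBS was 2.08-fold lower than KO (2.02 to 2.13) and 5.12 times WT (4.88 to 5.38).

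The other 4 genes did not share that order. Pglyrp1 (ENSMUSG00000030413, chr7:18871331-18890459, plus strand) stood at 554, 517 and 1046 CPM, from 141664, 181679 and 185941 UMIs, so KO_PBS was the high library. Cstdc5 (ENSMUSG00000071561, chr16:36359382-36367748, minus strand; the KO_PBS list calls it BC100530) stood at 1951, 2111 and 2517 CPM, from 499218, 741818 and 447635 UMIs, a narrow range. An exon of Cstdc5 overlaps the antisense gene Gm15845, and whether counting used strand is not given in the sources used here. Stfa1 (ENSMUSG00000071562, chr16:36276951-36285373, plus strand) had 215, 356 and 96 UMIs, or 0.840, 1.01 and 0.540 CPM, and was low in every library. Serpinb3a (ENSMUSG00000044594, chr1:107045587-107052303, minus strand) had 4430, 4370 and 1052 UMIs and stood at 17.3, 12.4 and 5.92 CPM, with KO_PBS the low library.

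**Figure D1:**
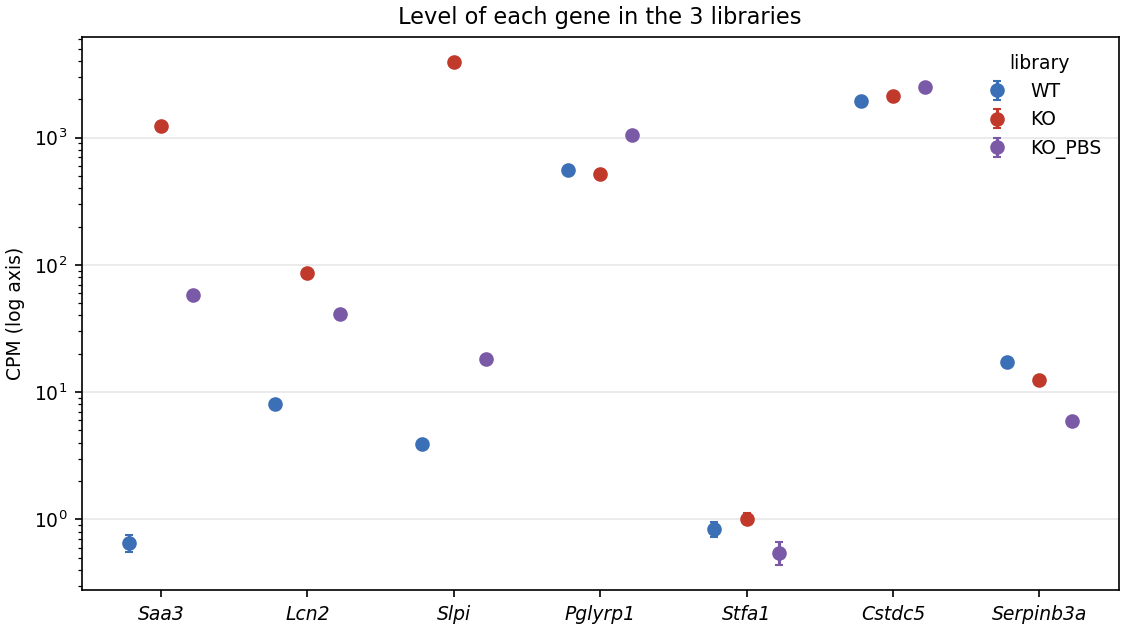
Level of each gene (CPM, log axis) in the WT, KO and KO_PBS libraries, 1 point per library with exact 95% counting intervals, most of which are smaller than the points. Saa3, Lcn2 and Slpi are highest in KO, Pglyrp1 is highest in KO_PBS at 1046, and Cstdc5 lies between 1951 and 2517 in all 3 libraries. Levels can be compared within a gene and not between genes.

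A rule of size was applied to every gene: 50 or more UMIs in the pair of libraries, a difference of 2-fold or more, and counting intervals free of overlap. Between KO and WT it counted 3 of the 7 genes as higher, Saa3, Slpi and Lcn2, and 0 as lower. Over all 20252 genes that could be counted, 20.6% were higher and 8.63% lower in KO. The other 4 genes had log2 ratios of KO to WT of -0.10 for Pglyrp1, 0.27 for Stfa1, -0.48 for Serpinb3a and 0.11 for Cstdc5, the last turning to -0.13 when ratios were centred on the median gene. Between KO_PBS and KO it counted 4 as lower, Saa3, Slpi, Lcn2 and Serpinb3a, against 4.70% of 22416 genes. Serpinb3a was 2.10-fold lower (1.97 to 2.25). The 4 Serpinb3 genes together stood at 12.6 CPM in KO and 9.97 in KO_PBS, a difference of less than 2-fold. The rule counted 1 as higher, Pglyrp1, at 2.02-fold (2.01 to 2.04), against 39.9% of genes. Between KO_PBS and WT it counted Saa3, Lcn2 and Slpi as higher, against 57.0% of 22138 genes, and Serpinb3a as 2.93-fold lower (2.74 to 3.13), against 4.06%. Here too the 4 Serpinb3 genes together, at 17.8 CPM in WT and 9.97 in KO_PBS, differed by less than 2-fold. Because the genes were picked from these contrasts, nothing is read from their count against the background.

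The median gene was not at 0 in these ratios. It was higher by 0.24 on the log2 scale in KO against WT, by 0.63 in KO_PBS against KO and by 1.27 in KO_PBS against WT. Relative to it, Saa3 and Slpi in KO stood at 10.63 and 9.74 above WT, and Lcn2 at 3.17. The call of Pglyrp1 between KO_PBS and KO ended under that centring (0.39), with immunoglobulin genes left out of the totals (0.99) and with mitochondrial genes left out (0.99). The call of Slpi between KO_PBS and WT also ended under centring, at 0.95. Stfa1 was then counted as lower in KO_PBS against both other libraries, at -1.54 and -1.91. The call of Lcn2 between KO_PBS and KO ended when only the 25% of barcodes with the fewest UMIs were summed, at -0.82. Pglyrp1 in KO_PBS was 0.92 above WT as measured and -0.35 after centring, and Cstdc5 was 0.37 above WT as measured and -0.90 after centring, so neither has a direction that holds under both scalings.

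Summed plasma cell, neutrophil and keratocyte markers had the same order of libraries as Saa3, Slpi and Lcn2. The sums of macrophage, T cell and B cell markers were low in WT and near each other in KO and KO_PBS. The 6 plasma cell markers summed to 16.7 CPM, 1261 CPM and 117 CPM. The 10 macrophage markers summed to 89.8, 869 and 851 CPM, and the 12 keratocyte markers to 1321, 4542 and 2619 CPM. The keratocyte marker Kera by itself stood at 48.4, 156 and 32.9 CPM, with KO_PBS below WT. The 9 neutrophil markers summed to 0.926, 61.1 and 14.3 CPM, with 1 of the 9 at 0 in WT. Most of the KO sum and little of the KO_PBS sum came from Ngp, Prtn3, Elane and Mpo. They stood at 22.4, 14.1, 7.36 and 4.06 CPM in KO and at 0.315, 0.950, 0.0675 and 0.309 CPM in KO_PBS. The fall of the neutrophil sum from KO to KO_PBS thus came mostly from these genes and is not read for the other neutrophil markers. T cell markers summed to 4.80, 138 and 148 CPM and B cell markers to 16.4, 115 and 111 CPM. More cells of a type and more RNA per cell cannot be told apart in such sums, and the part of these cells in the library totals was not tested.

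The matrices show which barcodes carry Saa3 and which carry Slpi. Barcodes were thinned at random to 1000 UMIs, which left out 265, 226 and 16860 shallower barcodes. In KO, Saa3 then had a UMI in 51.9% of 106805 barcodes (80.9% unthinned) and Slpi in 82.8% (97.2% unthinned). In barcodes rich in photoreceptor markers, nuclei that should lack both genes, the thinned shares were 47.9% for Saa3 and 78.4% for Slpi, at a median of 3490 UMIs against 2970 in the whole library. The shares over all KO barcodes were thus close to those in barcodes of unrelated tissue. Among the 25% of KO barcodes with the fewest UMIs (26789 low-UMI barcodes), Saa3 stood at 1160 CPM and Slpi at 3146 CPM. These barcodes serve as a reference for RNA that all barcodes share, and they were not shown to be empty. In WT the thinned shares were 0.0561% for Saa3 and 0.385% for Slpi, and in KO_PBS 5.66% and 1.80%.

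Presence of Saa3 told little about presence of Slpi. In KO, barcodes of unrelated tissue held each gene nearly as often, so this comparison cannot show whether the same nuclei expressed both. Among the 55388 thinned KO barcodes with Saa3, 83.1% (82.8 to 83.4) also had Slpi, against 82.5% (82.2 to 82.8) of those without Saa3. In all, 46017 barcodes held both, 9371 Saa3 alone, 42419 Slpi alone and 8998 neither. In KO_PBS, Slpi was in 2.03% (1.67 to 2.44) of the 5522 barcodes with Saa3 and in 1.79% (1.70 to 1.87) of the rest. In WT, 1 of the 54 barcodes with Saa3 had Slpi. Saa3 and Lcn2 were met together more often: in KO, Lcn2 had a UMI in 8.46% (8.23 to 8.69) of barcodes with Saa3 and in 6.23% (6.02 to 6.44) of those without, while it was in 7.38% of barcodes both with and without Slpi. In KO_PBS the Lcn2 shares with and without Saa3 were 3.84% (3.35 to 4.38) and 3.99% (3.87 to 4.12), intervals that overlap.

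Barcodes with many UMIs of either gene were counted next. A KO barcode was called rich in a gene when it had at least 3 of its UMIs and more than its depth and the library's mean level predict, with a Poisson tail under 1e-06. By that rule 3836 KO barcodes (3.58%) were rich in Saa3 and held 30.7% of its UMIs, and 7817 (7.30%) were rich in Slpi and held 40.1% of its UMIs. The sets shared 237 barcodes, 6.18% of the Saa3-rich and 3.03% of the Slpi-rich, near the 7.30% and 3.58% of all KO barcodes that were rich in the other gene, so nothing is read from the overlap. The barcode with the most held 454 UMIs of Saa3 and, for Slpi, 1417. The variance of thinned UMIs over their mean was 8.82 for Slpi and 5.03 for Saa3 in KO, and between 0.999 and 1.35 for the other 5 genes there. It was 1.27 for Cstdc5, whose level in KO was above that of Saa3. This measure nears 1 for any gene at a low level, so it does not show that Lcn2 was spread more evenly than Saa3 or Slpi. Outside KO few barcodes were rich: 5 in WT and 18 in KO_PBS for Saa3, and 1 and 4 for Slpi. Levels in KO also moved with depth, Slpi from 3146 CPM in the 25% of barcodes with the fewest UMIs to 4365 in the 25% with the most, and Saa3 from 1160 to 1270.

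The genes leading the Saa3-rich barcodes of KO were a protease inhibitor, proteases of the matrix and other SAA genes. The 5 genes outside the 7 with the largest ratio to the whole library (10 CPM added to both) were Timp1, a metalloproteinase inhibitor, at 424 against 66.0 CPM (5.71-fold), Mmp12, macrophage elastase, at 212 against 34.4 CPM (5.00-fold), the SAA gene Saa1 (3.99-fold), Mmp3, stromelysin-1, at 3736 against 1092 CPM (3.40-fold), and Saa2 (3.14-fold). Lcn2 stood at 255 against 85.7 CPM there and Slpi at 3562 against 3933. Of the 3836 barcodes, 244 were also rich in keratocyte markers and in no other class. In the 3585 that were rich in keratocyte markers neither alone nor along with another class, those markers stood at 5599 CPM against 4542 in the library, 1.23-fold.

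The 5 genes leading the Slpi-rich barcodes of KO were immunoglobulin genes. They were Iglv1 (3.76-fold), Ighg2b (3.52-fold), Igkc, the kappa light chain, at 42017 against 12405 CPM (3.39-fold), Igkv12-44 (3.19-fold) and Ighg2c (3.15-fold). Saa3 stood at 1080 against 1228 CPM there. Of the 7817 barcodes, 461 were also rich in plasma cell markers and in no other class. The 7338 barcodes rich in plasma cell markers neither alone nor along with another class held them at 3122 CPM against 1261 in the library, 2.46-fold.

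KO barcodes were also grouped by their thinned UMIs of each gene. From 51417 barcodes with no Saa3 UMI to 311 barcodes with 20 or more, keratocyte markers went from 4309 to 8051 CPM (7739 to 8373) and Lcn2 from 69.5 to 559 CPM (479 to 649), while plasma cell markers went from 1260 to 1122 CPM, basal epithelium markers from 10766 to 9148, Slpi from 3830 to 3257, Cstdc5 from 2128 to 1736 and Pglyrp1 from 516 to 463. From 18369 barcodes with no Slpi UMI to 2619 with 20 or more, plasma cell markers went from 707 to 4372 CPM (4293 to 4453), while keratocyte markers went from 4511 to 3745 CPM, basal epithelium markers from 11044 to 8758, Saa3 from 1204 to 946, Lcn2 from 85.1 to 68.0, Cstdc5 from 2198 to 1724 and Pglyrp1 from 529 to 407. Lower levels at many UMIs of either gene were thus shared by most of these measures and are not read as an opposition of Saa3 to Slpi. Macrophage markers lay between 856 and 953 CPM in every group of either gene.

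**Figure D2:**
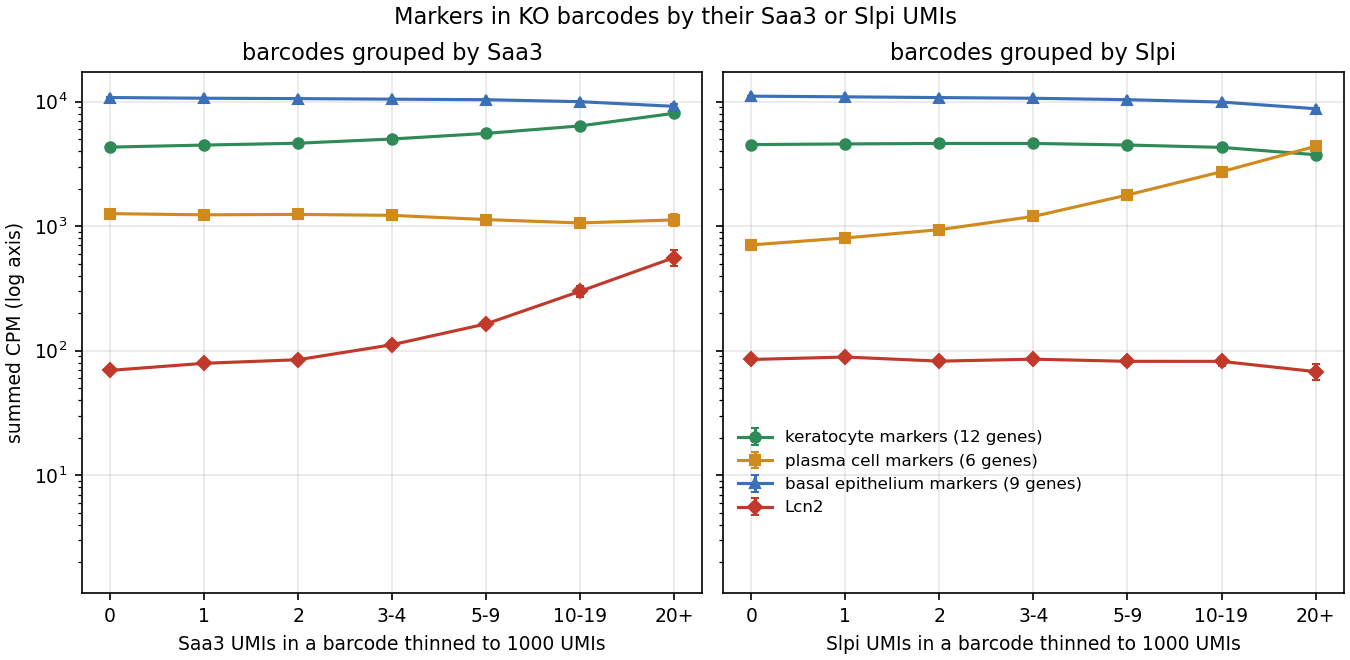
Summed level (CPM, log axis) of keratocyte, plasma cell and basal epithelium markers and of Lcn2 in KO barcodes, grouped by their Saa3 UMIs (left) or Slpi UMIs (right) after thinning to 1000 UMIs; bars are exact 95% counting intervals. Keratocyte markers and Lcn2 climb with Saa3, to 8051 and 559, and plasma cell markers climb with Slpi, to 4372.

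Barcodes were then called rich in the markers of a cell class, with at least 3 different markers and the same Poisson tail, and those rich in several classes (598, 451 and 268 by library) were set aside. No doublet caller was run. A class of this kind is a range of a score and holds few of the barcodes: 6067, 6974 and 2628 were rich in 1 class. Levels in a class are set against the low-UMI barcodes of the same library.

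Slpi in KO was highest in the 648 plasma cell-marker-rich barcodes, at 22859 CPM, 7.27 times the low-UMI level (7.20 to 7.33), with a UMI in 99.8% of them (98.3% thinned). Slpi was the third leading gene of that class, between the plasma cell genes Derl3 and Mzb1. In every other class of at least 50 barcodes, Slpi lay between 0.712 times the low-UMI level, in barcodes rich in markers of differentiated corneal epithelium, and 1.31 times, in the 269 neutrophil-marker-rich barcodes. The low-UMI level of Slpi was 3146 CPM against 3933 in the whole library, so ratios to the library would be lower than these. Slpi rose with depth, and the plasma cell and neutrophil classes had medians of 4217 and 3553 UMIs against 1994 in low-UMI barcodes. WT had 0 plasma cell-marker-rich barcodes and KO_PBS 2, so Slpi was not compared there. In WT, the 1917 keratocyte-marker-rich barcodes held 78 Slpi UMIs, 10.3 CPM, 2.52 times the low-UMI level (1.89 to 3.34). The 293 conjunctival epithelium-marker-rich barcodes of WT held 9. Without the barcode with the most Slpi, these classes were at 2.43 and 1.82 times. The keratocyte class of KO was at 1.02 (1.00 to 1.03). The low-UMI level of Slpi was 4.09 CPM in WT and 3146 CPM in KO, so the ratios of WT and KO are not set against each other.

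Among classes of at least 50 barcodes, Saa3 in KO was highest in stromal and macrophage classes. The 1954 keratocyte-marker-rich barcodes held 2767 CPM, 2.39 times the low-UMI level (2.35 to 2.42), with a UMI in 58.0% after thinning (86.3% unthinned). The 65 macrophage-marker-rich barcodes held 2071 CPM, 1.79 times (1.64 to 1.94). The 220 barcodes rich in a second stromal set led by C1qtnf7 held 1840 CPM, 1.59 times (1.52 to 1.66). Next came the 56 melanocyte-marker-rich barcodes with 362 Saa3 UMIs, at 1563 CPM and 1.35 times without the barcode with the most. Treated in the same way, the keratocyte, macrophage and C1qtnf7 classes were at 2.34, 1.66 and 1.51 times, so the last was close to the melanocyte class. The lowest among those classes were the barcodes rich in differentiated and in basal epithelial markers, at 0.663 and 0.682 times, while 26 retinal pigment epithelium-marker-rich barcodes were at 0.581 times (0.453 to 0.732). In KO_PBS, the 59 macrophage-marker-rich barcodes held 104 Saa3 UMIs, 574 CPM, 9.36 times the low-UMI level (7.61 to 11.4). Of these, 38 UMIs lay in 1 barcode, and without it the ratio was 6.18. Keratocyte-marker-rich barcodes were only 33 in KO_PBS, with 6 Saa3 UMIs, which does not show whether that class held more than the low-UMI level (1.15 times, 0.423 to 2.52).

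Lcn2 in KO was highest in a pair of classes in which neither Saa3 nor Slpi exceeded 1.31 times its low-UMI level. The 266 barcodes rich in markers of the corneal endothelium, the pump layer at the back of the cornea, held 522 UMIs, 477 CPM, 5.98 times the low-UMI level (5.45 to 6.55), with a UMI in 17.7% of them after thinning (34.6% unthinned). The 269 neutrophil-marker-rich barcodes held 467 UMIs, 441 CPM, 5.53 times (5.02 to 6.09), with a UMI in 27.1% (52.8% unthinned). The photoreceptor-marker-rich barcodes had a UMI in 10.0% (23.0% unthinned), at medians of 3718, 3553 and 3490 UMIs for the 3 classes. Saa3 in those same endothelial and neutrophil classes was at 0.851 and 0.972 times its low-UMI level. Without the single barcode with the most Lcn2 the ratios were 5.35 and 5.21. The keratocyte class of KO, where Saa3 was highest, also held 991 Lcn2 UMIs in 1954 barcodes. Without its barcode with the most Lcn2, that class was at 126 CPM, 1.58 times the low-UMI level. In WT, the 514 corneal endothelium-marker-rich barcodes held 53 Lcn2 UMIs, 25.4 CPM, 2.97 times the low-UMI level (2.18 to 3.98), and the 288 basal epithelium-marker-rich barcodes were about as high, with 35 UMIs, 24.9 CPM, 2.90 times (1.99 to 4.12). In KO_PBS, 605 corneal endothelium-marker-rich barcodes held 101 Lcn2 UMIs, 53.7 CPM, 1.19 times (0.960 to 1.46), an interval that includes 1. The 54 vascular endothelium-marker-rich barcodes held 14 Lcn2 UMIs, 1.82 times (0.991 to 3.06). The 107 retinal pigment epithelium-marker-rich barcodes held 24, 1.76 times (1.12 to 2.63), of which 15 lay in 1 barcode, and without it the ratio was 0.700. Both intervals overlap that of the corneal endothelium class. Neutrophil-marker-rich barcodes were 269 in KO and 0 in WT and in KO_PBS. In KO this score came mostly from Ngp, Prtn3, Elane and Mpo, which were low in KO_PBS. KO_PBS was also shallower, so its 0 is not read as a lack of neutrophils.

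Among the 259 Lcn2-rich barcodes of KO, 23 were corneal endothelium-marker-rich, 18 neutrophil-marker-rich, 47 (18.1%) Saa3-rich and 17 (6.56%) Slpi-rich. Of all 107031 KO barcodes, 266 and 269 were in those classes, 3.58% were Saa3-rich and 7.30% Slpi-rich, so the Slpi-rich share was near that of the library. Their leading genes were the neutrophil granule genes Ngp (882 against 22.4 CPM) and Camp (671 against 19.9), then Saa2 (306 against 8.50), S100a8 (3323 against 218) and Spp1 (418 against 28.5). Saa1 was sixth, at 238 against 12.6 CPM. Saa3 stood at 4515 against 1228 CPM there. This set and the Pglyrp1-rich and Cstdc5-rich sets were added after the data were seen.

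Pglyrp1 was highest in the same class in all 3 libraries. Among classes of at least 50 barcodes, this was the conjunctival epithelium-marker-rich class: 2230 CPM in 293 barcodes of WT, 1667 in 254 of KO and 4680 in 186 of KO_PBS. These were 4.14 (3.95 to 4.32), 3.34 (3.17 to 3.51) and 4.52 (4.34 to 4.71) times the low-UMI levels. In KO it was also 2.51 times (2.43 to 2.59) in the 745 barcodes rich in stress and skin-type keratins. Genes leading the 259 Pglyrp1-rich barcodes of WT were Krt7, Lce3a and Prss22, those of the 240 in KO Cnfn, Sprr2d and Klk8, and those of the 211 in KO_PBS the transporter genes Slc5a1 and Slc5a8 and the mucosal gene Olfm4. No gene was in the leading 3 of more than 1 library, while Lce3a, Ltf and AA467197 were in the leading 10 of both WT and KO and Muc1 in those of WT and KO_PBS.

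Cstdc5 in KO was 2.37 times the low-UMI level (2.33 to 2.41) in the stress and skin-type keratin class, at 4806 CPM, and 2.40 times (2.34 to 2.45) in the 248 basal epithelium-marker-rich barcodes. In WT, its ratio was 2.26 (2.11 to 2.42) in the 44 barcodes of the stress keratin class, 1.79 (1.72 to 1.85) in the conjunctival class and 1.57 (1.52 to 1.62) in the basal class. In KO_PBS every class was below the low-UMI level, from 0.358 times (0.334 to 0.383) in the melanocyte class to 0.811 times (0.714 to 0.918) in the 31 stress keratin barcodes. The conjunctival class was among the higher there, at 0.770 times (0.727 to 0.814), and the basal class was at 0.459 times (0.430 to 0.489). The low-UMI level itself was high in KO_PBS, 2977 CPM against 2079 CPM in the 25% of barcodes with the most UMIs, so these ratios are not set against those of WT and KO. The number of Cstdc5-rich barcodes was 255, 528 and 7. In KO they were led by Sprr2d, S100a9, Sprr2f, Dmkn and Cnfn, genes of cornifying epithelium and of the calprotectin subunit S100a9. Serpinb3a was high in the basal and conjunctival classes: 7.29 times the low-UMI level (6.05 to 8.73) and 5.20 times (4.01 to 6.64) in WT, and 3.97 times (3.08 to 5.05) and 5.48 times (4.23 to 7.01) in KO. KO_PBS held 8 and 10 Serpinb3a UMIs there, 2.00 times (0.847 to 4.04) and 3.22 times (1.51 to 6.08). In differentiated corneal epithelium-marker-rich barcodes of KO it was at 0.560 times. Stfa1 had few UMIs in any class, and its place is uncertain. KO held 10 in the stress keratin class, 6 in the basal class and 7 in the differentiated corneal epithelium class. Without the barcode with the most Stfa1, these were 3.33, 3.39 and 0.880 times the low-UMI level. WT held 12 in the differentiated class, 2.31 times without that barcode. Few of their own markers were among the 10 leading genes of the basal and stress keratin classes, and Sprr2d, Dmkn and Sprr2f led the latter in KO, so both are ranges of epithelial markers and not cell types.

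**Figure D3:**
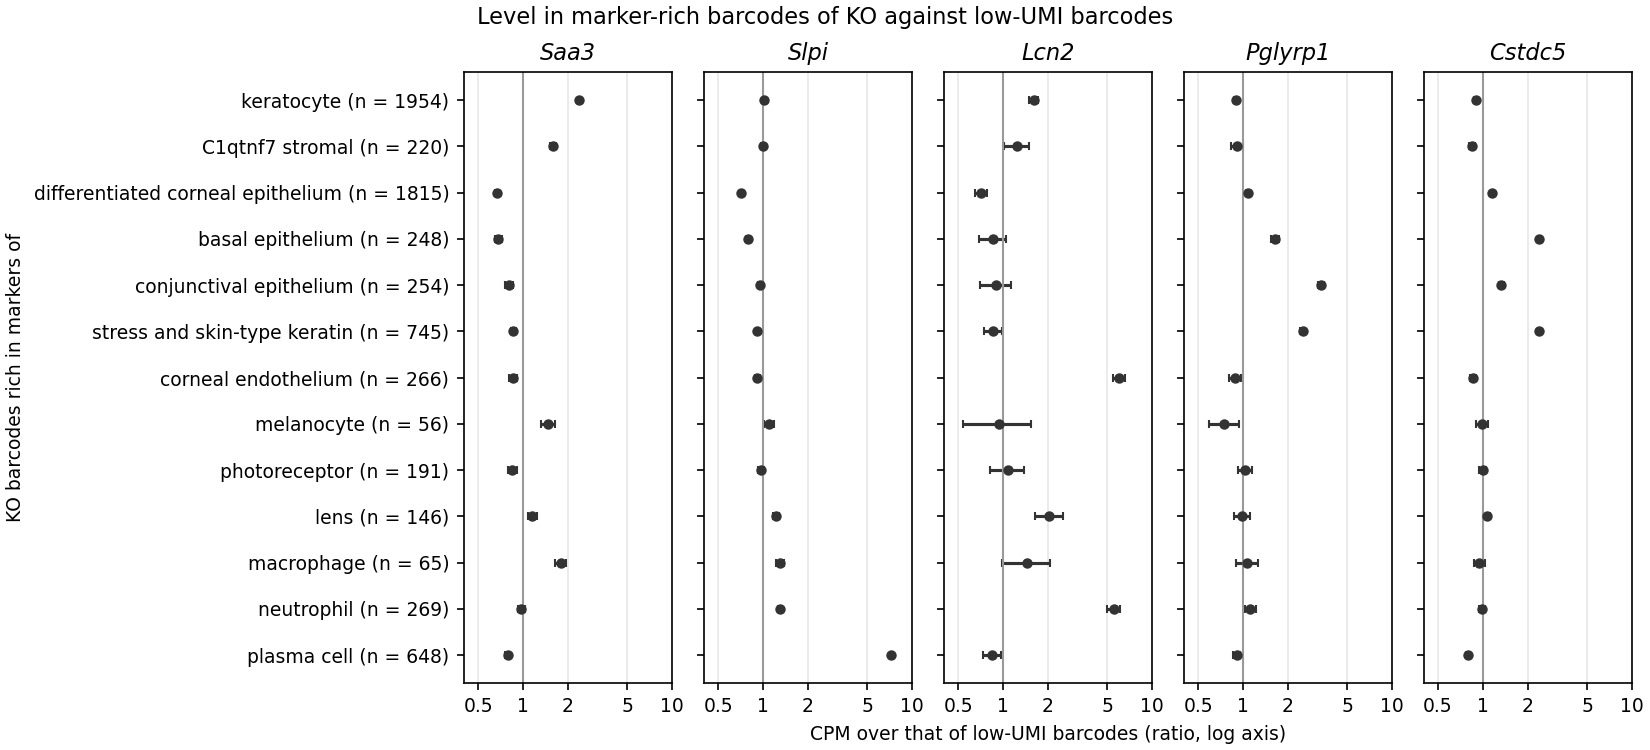
Level of 5 genes in marker-rich KO barcodes over their level in low-UMI barcodes of KO (ratio, log axis, 1 marks equality), for classes of at least 50 barcodes, with exact 95% counting intervals. Slpi stands out in the plasma cell class at 7.27, Saa3 in the keratocyte class at 2.39, Lcn2 in the corneal endothelium and neutrophil classes at 5.98 and 5.53, and Pglyrp1 in the conjunctival class at 3.34.

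Close relatives of the 7 genes were read as a list of 18. Between KO and WT, 9 of the 14 that could be counted were higher and 2 lower, where 20.6% of all genes were higher and 8.63% lower. Their median log2 ratio was 2.64 against 0.24 over all genes. Saa1 stood at 0.473, 12.6 and 0.607 CPM and Saa2 at 0.0586, 8.50 and 0.326 CPM. Saa3 gave 98.3% of the UMIs of the 3 SAA genes in KO and 55.1% in WT. The neutrophil stefins Stfa2 and Stfa2l1 stood at 0.332, 2.38 and 0.444 CPM and at 0.359, 2.25 and 0.461 CPM, and Csta3 at 0.141, 5.87 and 0.636 CPM. Cstdc4 (0.313, 2.36 and 0.731 CPM) and Cstdc6 (2.41, 7.24 and 3.87 CPM) had the same order of libraries. Cstdc5 gave 97.2 to 98.7% of the UMIs of 9 stefin A genes, and their sum was 1990, 2173 and 2549 CPM. That sum leaves out Csta1, which stood at 405, 211 and 636 CPM, so the share of Cstdc5 would be lower with it. Stfa3 stood at 34.9, 40.6 and 25.1 CPM, and the other stefin Cstb at 353, 356 and 412. Of the peptidoglycan recognition genes, Pglyrp3 was lower in KO, at 3.59, 0.914 and 3.00 CPM, and Pglyrp2 (0.0508, 1.49 and 1.17) and Pglyrp4 (0.105, 0.658 and 1.07) were higher. Serpinb3b was 0.465, 0.188 and 3.98 CPM, so that Serpinb3a gave 98.4% of the UMIs of its 4-gene group in KO and 59.4% in KO_PBS. The group summed to 17.8, 12.6 and 9.97 CPM. The last 300 transcript bases of Serpinb3a and Serpinb3b were 91.6% the same where aligned. How reads that fit both were assigned is not given either, so the split between them is uncertain.

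Genes of the same response were read from 5 further lists, chosen with earlier results of these libraries known. Of 21 acute-phase genes that could be counted, 17 were counted as higher in the knockout and 1 as lower, with a median log2 ratio of 2.30. Over all genes, 20.6% were higher and 8.63% lower in KO, with a median of 0.24, and the counts of the lists that follow are to be read against these shares. Serpina3g, a serpin induced by cytokines, stood at 0.195, 29.3 and 42.8 CPM, the lipocalin Orm1 at 0.0273, 1.10 and 0.270, and haptoglobin (Hp) at 0.301, 10.3 and 6.32. Crp, which is not a major acute-phase protein in mice, was the lower gene, at 0.332, 0.0370 and 2.18 CPM. The first 3 were named for their fold of KO over WT, so only KO_PBS is read here. It was above KO for Serpina3g alone of them.

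Of 30 protease inhibitors, 12 were higher and 2 lower in KO, with a median of 0.67. The WAP-domain genes Wfdc21 (0.0273, 6.30 and 0.574 CPM) and Wfdc17 (4.78, 75.6 and 23.5 CPM) and the C1 inhibitor Serping1 (27.5, 244 and 228 CPM) led. The lower genes were Wfdc3 (0.336, 0.139 and 0.562 CPM) and Cst6 (145, 62.5 and 84.2 CPM). Wfdc21 was also the eighth leading gene of the neutrophil-marker-rich barcodes. Of 14 antimicrobial genes, 8 were higher and 1 lower, with a median of 1.17. They were led by Camp (0.344, 19.9 and 2.42 CPM), the cathelicidin of neutrophil granules, Nos2 (0.109, 1.73 and 4.35 CPM) and Lyz2, the lysozyme of myeloid cells (39.6, 540 and 541 CPM), with the beta-defensin Defb14 lower (9.54, 2.36 and 5.49 CPM).

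Inducers and receptors of the response were mostly higher in KO. Of 27 upstream signalling genes, 21 were higher in KO and 0 lower, with a median of 1.44. The cytokines Osm (0.0156, 0.734 and 0.579 CPM), Il1b (0.735, 27.8 and 12.8 CPM) and Il6 (0.0391, 0.894 and 1.56 CPM) led. Among the others, the C/EBP gene Cebpd stood at 30.7, 70.0 and 19.9 CPM, and Osmr, the oncostatin M receptor, at 32.5, 108 and 39.5 CPM. Cebpd and Osmr were chosen after their values were seen, and most of the list did not fall in KO_PBS as they did. Between KO_PBS and KO, 22 of 28 upstream genes were counted neither way, 4 lower and 2 higher. Over all genes, 4.70% were lower and 39.9% higher. The C/EBP gene Cebpb stood at 67.5, 95.3 and 103 CPM, and Stat3 at 46.0, 128 and 136 CPM. Of 24 receptors of these proteins and proteases they inhibit, 18 were higher and 0 lower, with a median of 2.24. Elane, the neutrophil elastase that SLPI inhibits, had 0, 2586 and 12 UMIs. With the WT count of 0 raised to the floor of 3 counts, KO was 628-fold higher than WT, a value that this floor sets. Prtn3, proteinase 3, stood at 0.0938, 14.1 and 0.950 CPM. Trem1, a receptor of myeloid cells, had 2, 526 and 95 UMIs. The counts of the neutrophil genes moved with the neutrophil markers given above, and Elane and Prtn3 are among those markers.

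Between KO_PBS and KO the lists were mixed. Of acute-phase genes 6 were higher and 5 lower of 22, of protease inhibitors 7 and 7 of 31, of antimicrobial genes 9 and 1 of 16, of upstream signals 2 and 4 of 28, of receptors and target proteases 4 and 7 of 25, and of the relatives 3 and 6 of 14. Over all genes, 39.9% were higher and 4.70% lower. Their median log2 ratios were 0.33, -0.25, 1.14, -0.03, -0.17 and -0.80, against 0.63 over all genes. Centring on the median gene turned the acute-phase median to -0.30. Between KO_PBS and WT, 57.0% of all genes were higher and 4.06% lower. The same lists in that order had 17 higher and 0 lower of 21, 12 and 5 of 31, 12 and 1 of 16, 20 and 1 of 28, 18 and 0 of 23, and 6 and 0 of 14. Centred on the median gene, their median log2 ratios were 1.54, -0.60, 1.48, 0.27, 1.35 and -0.60, so protease inhibitors and relatives lay below the median gene. The comparisons share libraries, so their ratios are not independent of each other.

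**Figure D4:**
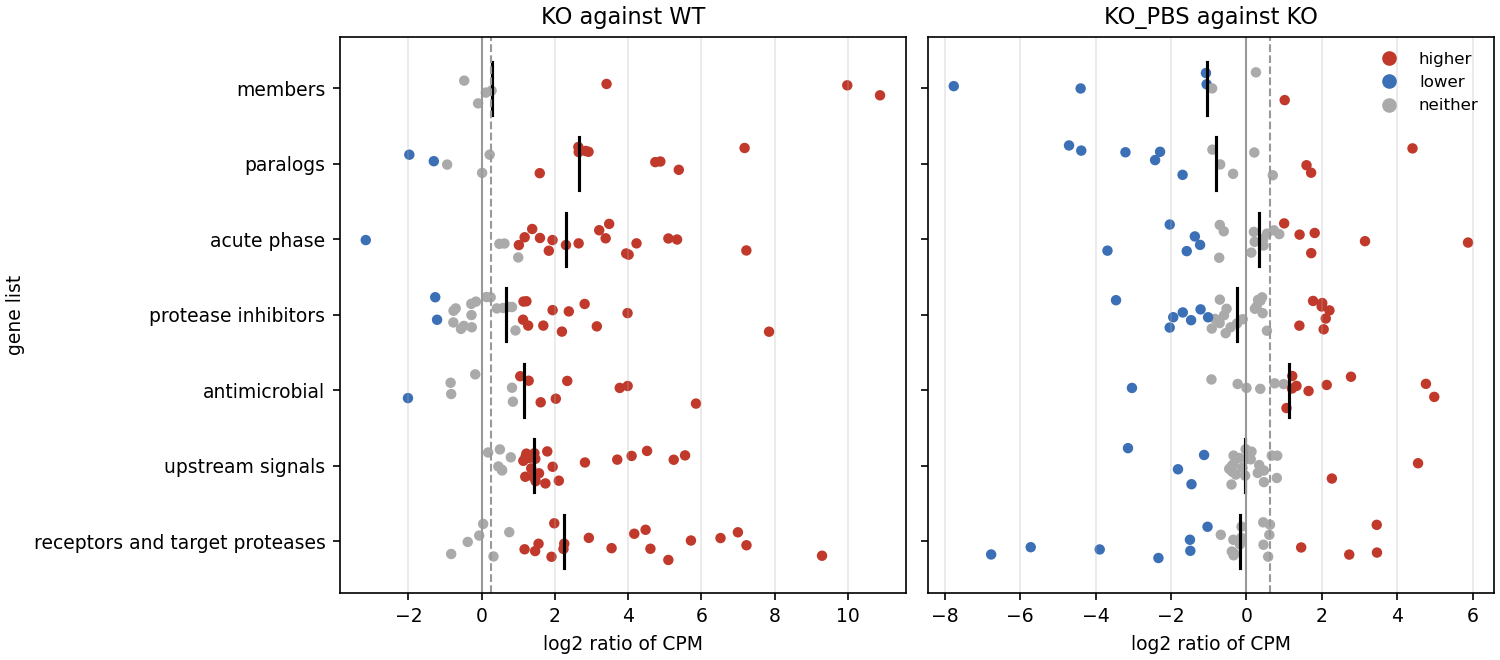
Log2 ratio of CPM for each gene of the 7 (members) and of the 6 lists that could be counted, KO against WT (left) and KO_PBS against KO (right). Points are genes, coloured by the rule of size, with vertical jitter; black bars are list medians, the solid grey line is 0 and the dashed line the median of all genes. In KO against WT the medians run from 0.27 for the 7 genes to 2.64 for their relatives.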

How the data were processed

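Nuclei of 3 libraries, 1 per group, were read from the counts the authors deposited: whole-number UMI counts per gene and barcode, not normalized. Counting used Cell Ranger 7.0.1, per the file headers, and the build was mm10, per the submitters' processing notes. The gene annotation, whether reads in introns counted and how barcodes were filtered are not given in the sources used here. The KO_PBS matrix lists 31053 genes, the others 32285, and 597 IDs of the shared genes carry another symbol in it. It may have been made with another annotation, and the part of that in differences between KO_PBS and the other libraries was not tested. All deposited barcodes were kept. Levels are CPM over the 30406 Ensembl IDs of all 3 gene lists, which held 99.6, 99.6 and 99.3% of the UMIs of WT, KO and KO_PBS.

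The rule of size needed 50 or more UMIs in the pair of libraries, a difference of 2-fold or more (counts under 3 raised to 3) and no overlap of their exact 95% Poisson intervals. Shares carry exact binomial (Clopper-Pearson) 95% intervals. Barcodes were thinned to 1000 UMIs without replacement. PCR and droplet capture add error that these intervals leave out. Named genes are the 7 genes, their relatives with at least 50 UMIs in 1 library, the 3 with the largest fold each way between KO and WT in each other list, and the 5 leading genes of Saa3-rich and Slpi-rich barcodes. The 7 genes, the lists and the C1qtnf7 marker set were chosen with earlier results of these data known. The rules were tested on simulated Poisson counts, without spread between libraries and without RNA shared by barcodes. That test does not show how often the rules would call such spread in these data. Locations are from GENCODE M21, matched by Ensembl ID, and promoters from RefSeq on GRCm38.p6, matched by gene symbol. All 7 genes were found in both. The lacripep arm named in the series text was not analysed here. Work used numba 0.67.0, biopython 1.88, pandas 2.3.3, matplotlib 3.10.9, scipy 1.17.1, numpy 2.4.6 and python 3.11.15.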

Additional observations from a re-analysis of the deposited data

How the results depend on the processing

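No paired analysis was possible because each group is 1 library. Of 231 log2 ratios of the 7 genes under alternatives, 0 turned a called value to the other sign. The number of genes past the rule moved as follows. KO against WT gave 2872 lower genes with no UMI minimum and 612 in low-UMI barcodes. A fold of 3 gave 2158 higher and 737 lower genes, and a fold of 1.5 gave 7000 and 3202. KO_PBS against KO gave 608 lower genes at a fold of 3, 1925 at 1.5 and 2891 centred on the median gene, 4963 higher genes in low-UMI barcodes, and 2 of the 7 genes at a fold of 3. KO_PBS against WT gave 404 lower genes at a fold of 3, 1668 at 1.5 and 5106 centred, and 6558 higher genes centred and 7646 in low-UMI barcodes.

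The share of Saa3 barcodes with Slpi follows the thinning depth by construction. At 500 and 2000 UMIs WT gave 0 and 0%, KO 64.9 and 94.7%, and KO_PBS 1.09 and 3.21%, where another random seed gave 1.65%. At Poisson tails of 1e-4 and 1e-10 the ratios to low-UMI barcodes in KO were 2.15 and 2.57 for Saa3 in the keratocyte class, 6.31 and 8.94 for Slpi in the plasma cell class, 4.60 and 7.88 for Lcn2 in the corneal endothelium class, 4.83 and 6.42 for Lcn2 in the neutrophil class, 2.82 and 4.24 for Pglyrp1 in the conjunctival class, and 2.08 and 2.82 for Cstdc5 in the stress keratin class. Saa3 in macrophage-marker-rich barcodes of KO_PBS was 7.60 at 1e-4. Needing 2 markers gave 6.72 for Slpi and 7.13 for Lcn2 in the neutrophil class. Keeping barcodes rich in several classes gave 7.13 for Slpi, 3.72 for Pglyrp1 and 2.46 for Cstdc5. Without the 5% of barcodes with the most UMIs the ratios were 6.81 for Slpi, 5.14 and 6.21 for Lcn2 in the endothelial and neutrophil classes, 3.07 for Pglyrp1 and 6.31 for Saa3 in KO_PBS. Alternatives chosen after seeing the data gave 2.33 for Saa3 in keratocyte-marker-rich barcodes without barcodes shared between libraries. Leaving out the barcode with the most UMIs of the gene gave 2.34 for Saa3, 7.15 for Slpi and 5.35 for Lcn2 in the endothelial class in KO, and 6.18 for Saa3 in KO_PBS. Barcodes rich in both Saa3 and Slpi were 460 at 1e-4 and 100 at 1e-10, where Saa3-rich barcodes were 2386. The cause of these moves was not tested.

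Depth limits KO_PBS most, with a median of 1422 UMIs per barcode. No value here has a biological replicate, and low-UMI barcodes were not shown to be free of nuclei.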

Other observations

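Igkc and Jchain, both calprotectin genes and the granule genes Ngp and Mpo were highest in KO over the whole libraries. Igkc, the kappa light chain constant gene, stood at 1.93 CPM in WT, 12405 in KO and 981 in KO_PBS, and the joining chain gene Jchain at 0.488, 1062 and 67.1 CPM. The calprotectin genes S100a8 and S100a9 stood at 2.20, 218 and 8.19 CPM and at 5.28, 430 and 32.5 CPM. Among granule genes, Ngp stood at 0.145, 22.4 and 0.315 CPM and Mpo at 0.0430, 4.06 and 0.309 CPM, while lactoferrin (Ltf) stood at 11.2, 23.3 and 39.2 CPM and was highest in KO_PBS. Of the genes that led the Saa3-rich barcodes, Timp1 stood at 2.01, 66.0 and 17.6 CPM and Mmp3 at 66.2, 1092 and 105 CPM in the whole libraries.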
